A study of Mus musculus with 19 samples.

Results

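The 10 genes followed here are used as markers of pericytes and vascular smooth muscle cells: *Pdgfrb*, *Notch3*, *Rgs5*, *Abcc9*, *Vtn*, *Anpep*, *Higd1b*, *Acta2*, *Tagln* and *Myl9*. Their transcripts were measured by RNAseq in sorted cells of the mouse hippocampus. The genes were taken by symbol from the table of normalized levels, and all 10 were found among its 60567 listed genes. Cells were sorted by FACS on GFP from hippocampi of male 9 month-old mice of the strain given as C57bl6 in the labels, with a C57BL/6 J background in the study's methods. All mice had received an AAV with the gfaABC1D promoter, a short promoter derived from the astrocyte gene *Gfap*, that encodes GFP. WT-GFP mice were non-transgenic littermates with AAV-GFP alone (7 samples of GFP+ astrocytes). APP-GFP mice carry the transgenes of APP/PS1dE9 mice, a mutated amyloid precursor protein and a presenilin 1 lacking an exon, and also had AAV-GFP alone (4 samples). APP-SOCS3 mice carry the same transgenes and received AAV-SOCS3 together with AAV-GFP, at the same total viral load (5 samples). SOCS3, an inhibitor of the JAK2-STAT3 pathway, was driven by the same astrocyte promoter. The 3 samples of GFP- cells all come from the WT-GFP group, so what GFP- cells of APP mice express was not measured. The study counts its GFP+ samples as mice, while its methods sort the hippocampi of a mouse separately and no label ties a sample to a mouse or a GFP- sample to a GFP+ sample, so *p* values measure the spread between these samples.

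Pericytes and smooth muscle cells, together called mural cells, wrap the endothelial tube of brain vessels. Pericytes cover capillaries, and smooth muscle cells surround arterioles and contract to set vessel calibre. Endothelial cells recruit mural cells by releasing PDGF-B, which acts on the receptor encoded by *Pdgfrb*, and keep them in place through Notch ligands that act on the receptor encoded by *Notch3*. Astrocytes touch the same vessels with their endfeet, from the other side of the basement membrane. Vitronectin, encoded by *Vtn*, is a protein of that matrix that brain pericytes secrete. *Rgs5* encodes an inhibitor of G protein signalling, *Abcc9* the sulfonylurea receptor subunit of a potassium channel, *Anpep* the aminopeptidase CD13 and *Higd1b* a small mitochondrial membrane protein. *Acta2*, *Tagln* and *Myl9* encode proteins of the contractile apparatus, smooth muscle actin, transgelin and a regulatory myosin light chain.

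Values are normalized levels, the reads of a gene over the size factor of its library, with 19331876 to 32621917 reads on genes per sample. They are compared between samples but not between genes, since the length counted for each gene is not known. The labelled cell type was checked with 15 astrocyte genes, which were all called higher in GFP+ than in GFP- cells (median log2 fold change 3.86). Among GFP+ samples 4 libraries stood apart by the number of genes detected, from 15575 to 19198 in replicates 1, 2 and 3 of WT-GFP and 16471 in replicate 2 of APP-GFP, against 21602 to 26757 in the other 12 GFP+ samples, and results that change without these 4 libraries are given with that value. In a pool of sorted cells, fewer cells of a type and less RNA per cell cannot be told apart.

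Sequences upstream of contractile genes are shown first, since the 3 pairs of *Acta2*, *Tagln* and *Myl9* had the highest correlations among the members. *Acta2* lies on chromosome 19 from 34240336 to 34255373, *Myl9* on chromosome 2 from 156775418 to 156781657 and *Tagln* on chromosome 9 from 45929628 to 45936058, all on mm10. The stretches come from RefSeq promoters of the build GRCm38.p6, with 7 of the 10 members matched, and capitals mark the motifs found in the 250 bases before the RefSeq start. One motif is the CArG box, known as the binding site of serum response factor, and its looser form in which 1 of its 6 middle bases may be G or C. The other is TGGGAA, the core of the site of RBPJ, the factor that Notch receptors act through, searched on both strands.
Myl9, chr2:156775214-156775419, + strand: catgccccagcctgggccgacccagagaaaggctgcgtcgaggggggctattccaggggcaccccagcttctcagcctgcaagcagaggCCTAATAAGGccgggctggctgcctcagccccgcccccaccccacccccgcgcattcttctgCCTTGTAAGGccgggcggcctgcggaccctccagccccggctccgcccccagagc
Acta2, chr19:34255438-34255467, - strand: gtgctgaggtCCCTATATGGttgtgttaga
Acta2, chr19:34255387-34255416, - strand: gtctttgctCCTTGTTTGGGAAgcgagtgg
Vtn, chr11:78498870-78499090, + strand: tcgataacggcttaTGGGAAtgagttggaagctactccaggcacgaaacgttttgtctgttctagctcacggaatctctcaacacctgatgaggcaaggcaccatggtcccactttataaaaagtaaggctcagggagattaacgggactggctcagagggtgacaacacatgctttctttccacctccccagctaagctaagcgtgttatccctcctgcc

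In *Myl9*, a strict CArG box begins at base -161 and a CArG-like match at base -99, counted back from the RefSeq start. *Acta2* holds CArG-like matches at bases -84 and -34, and the latter overlaps a TGGGAA match at base -27. GENCODE M21 places both printed stretches of *Acta2* in the first exon of a longer transcript. TGGGAA was also found at base -236 in *Vtn*, shown for its low levels in APP-SOCS3 astrocytes described further on, and at base -221 in *Abcc9*. Neither motif was in these windows of *Rgs5*, *Anpep* or *Notch3*. Of 32851 promoters of the same length, 1.47% held a strict CArG box, 8.59% a CArG-like match and 21.6% TGGGAA, and a match is only a description of these letters.

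GFP+ and GFP- cells of WT-GFP mice were compared first, to see how much of these transcripts was in the astrocyte sort. All 10 members were lower in GFP+ astrocytes, and each GFP- sample was above every WT-GFP astrocyte sample for each of them, as for 27.2% of all genes tested. A gene was called when limma on log2(level + 1) gave a change of 1.5-fold or more with *p* up to 0.05 before adjustment, and in this comparison 42.8% of all genes tested were called, 33.5% lower. All 10 members also had an adjusted *p* under 0.05 in limma, as 31.9% of all genes did, and 9 had one in edgeR (19.4% of all genes) and in DESeq2 (23.1%), with *Abcc9* as the exception in both. The median log2 fold change of the members was -4.03, against -1.31 over all genes tested. The 12 other pericyte genes and the 12 other smooth muscle genes listed were all called lower as well, among them *Tbx18*, a transcription factor of mural cells (-6.23), and *Smtn*, which encodes smoothelin (-3.67).

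*Acta2* had 31628, 50027 and 42854 in the GFP- samples against a range of 1574 to 16159 in WT-GFP astrocytes, with a mean of 10.7% of the GFP- mean, or 6.03% without WT-GFP replicate 2. The log2 fold change was -3.69 ± 0.58 (SE; limma, adjusted *p* = 7.33e-04). *Myl9* was at 15821, 28147 and 21755 in GFP- cells, and WT-GFP astrocytes had 15.6% of that mean, or 8.55% without replicate 2 (log2 fold change -3.20 ± 0.64). *Tagln* was at 10907, 17914 and 12978 in GFP- cells, with 11.4% left in WT-GFP astrocytes, or 5.55% without replicate 2 (log2 fold change -3.83 ± 0.73). These 3 genes were highest in replicate 2 of GFP- cells and lowest in replicate 1.

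Of the receptors, *Pdgfrb* had 8105, 5091 and 8387 in GFP- samples and 338 to 2807 in WT-GFP astrocytes, a mean of 18.7%, the highest share of the 10 members. Its fold change was also the smallest, at -2.69 ± 0.58 on the log2 scale (limma, adjusted *p* = 0.00498). *Notch3* had 5003, 5634 and 8300.4 in GFP- samples and 3.12% of their mean in WT-GFP astrocytes, with 0 reads in replicate 3 (log2 fold change -6.22 ± 1.61).

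Among the other pericyte genes, the low share was most marked for *Abcc9*. It had 707, 505 and 788 in GFP- samples, while 5 of the 7 WT-GFP astrocyte samples had no read and the other 2 had 21.4 and 92.5. The WT-GFP mean was 2.44% of the GFP- mean, and 0.536% without replicate 4. The fitted log2 fold change was -7.78 ± 1.57 (limma, adjusted *p* = 0.00355), and it depends on the pseudocount since most values are 0. *Anpep* had 762, 660.2 and 666 in GFP- cells and 3.51% of their mean in WT-GFP astrocytes, or 2.05% without WT-GFP replicate 4. *Rgs5* was nearly even in GFP- cells, at 17847, 20019 and 20002, and its WT-GFP astrocyte mean was 5.50% of that, or 3.28% without WT-GFP replicate 2. *Vtn* had 42355, 51354 and 61223 in GFP- cells, with 6.52% left in WT-GFP astrocytes, and *Higd1b* had 1281, 1923 and 1719, with 14.6% left, or 8.95% without WT-GFP replicate 2. For 9 of the 10 members the 2-sided exact permutation test gave 0.00833, the smallest *p* that 7 against 3 samples allow, and for *Anpep* it gave 0.0167 (0.0236 and 0.0416 after adjustment over 40 tests).

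**Figure D1:**
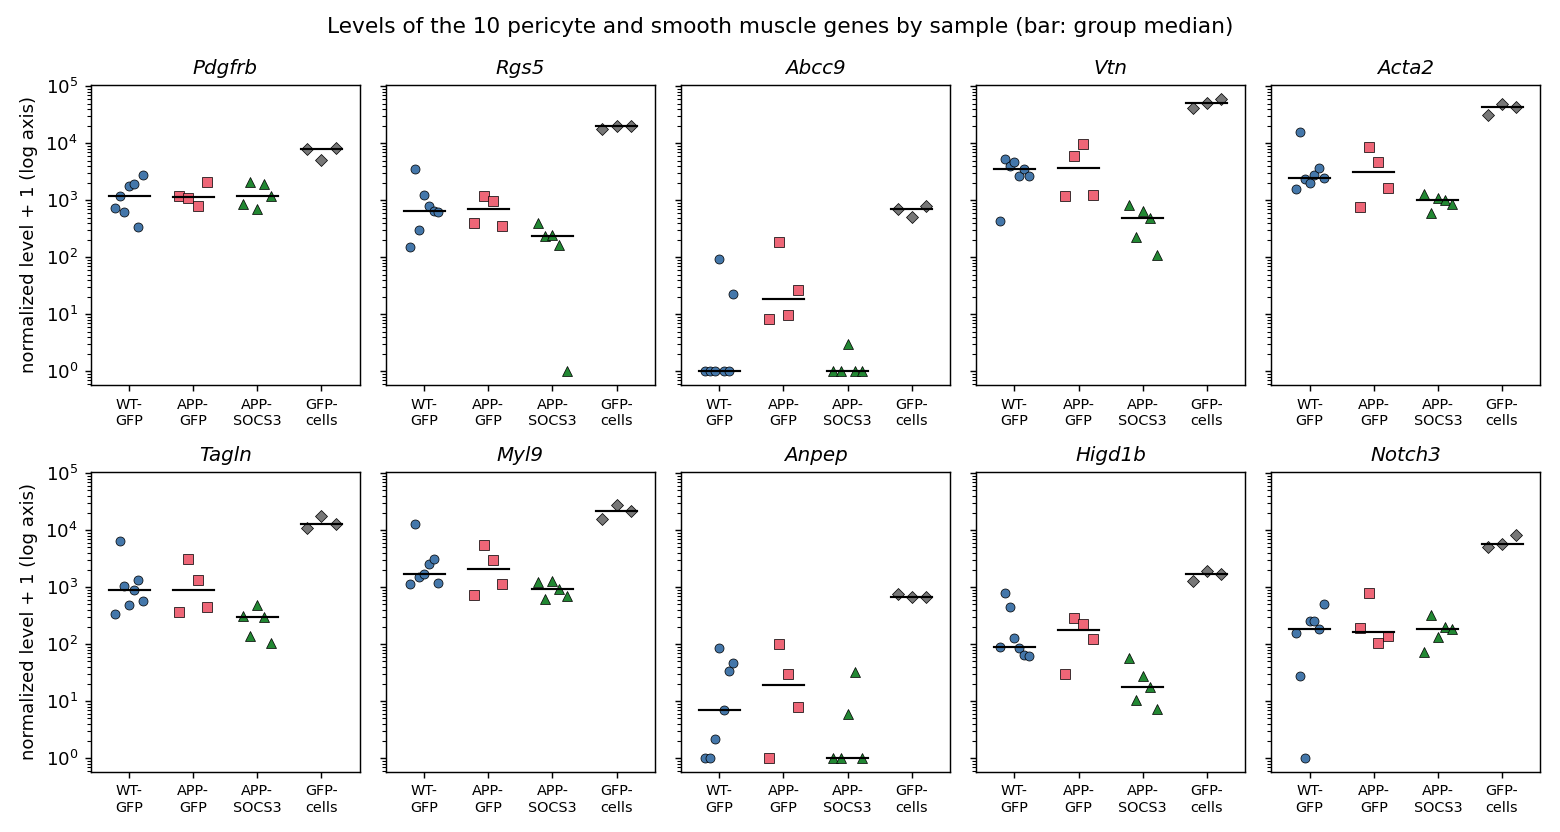
Normalized level plus 1 on a log axis for each of the 10 members, 1 point per sample, in GFP+ astrocytes (7 samples of WT-GFP, 4 of APP-GFP, 5 of APP-SOCS3) and in 3 samples of GFP- cells, with a bar at the group median. The GFP- samples lie above all GFP+ samples in every panel, and APP-SOCS3 samples lie low for most genes but not for *Pdgfrb* and *Notch3*.

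Within GFP+ astrocytes, the question was whether these transcripts differed with the APP genotype and with SOCS3. The 3 comparisons share samples, and the levels of the groups are given side by side before the tests. WT-GFP values are given as the lowest, the median and the highest of 7 samples.

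*Acta2* was at lowest 1574, median 2453, highest 16159 in WT-GFP astrocytes. In APP-GFP astrocytes it was at 774, 8617, 4667 and 1624, and in APP-SOCS3 astrocytes at 1277, 610.2, 1091, 1020.4 and 879. Replicate 2 was the highest in both WT-GFP and APP-GFP, and stood far above the others in WT-GFP. All APP-SOCS3 samples were below all WT-GFP samples. *Tagln* was at lowest 336, median 898, highest 6447 in WT-GFP, at 365, 3122, 1336 and 445 in APP-GFP and at 305, 140.4, 483, 298 and 105 in APP-SOCS3 astrocytes. *Myl9* was at lowest 1119, median 1710.5, highest 12706 in WT-GFP, at 733, 5585, 2993 and 1114 in APP-GFP and at 1231, 628, 1302, 914 and 693 in APP-SOCS3 astrocytes. Replicate 2 of WT-GFP and of APP-GFP was again the highest of its group for both genes, and APP-SOCS3 samples lay at the low end but overlapped both other groups.

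*Vtn* was at lowest 430.5, median 3582, highest 5381 in WT-GFP astrocytes, where replicate 1 was far below the other 6 samples. In APP-GFP it was at 1209, 6136, 9899.5 and 1257 and in APP-SOCS3 at 818, 226, 653, 491 and 111. All 5 APP-SOCS3 samples were below all 4 APP-GFP samples, and below every WT-GFP sample but replicate 1. *Rgs5* was at lowest 152, median 655, highest 3625 in WT-GFP, at 404, 1182, 985 and 357 in APP-GFP and at 399.7, 233, 248, 163 and 0 in APP-SOCS3 astrocytes, where 1 sample had no read. The highest APP-SOCS3 sample overlapped the lowest APP-GFP sample.

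*Higd1b* was at lowest 60.9, median 89.6, highest 790.3 in WT-GFP, at 29.0, 289, 227 and 125 in APP-GFP and at 55.2, 9.30, 27.0, 16.7 and 6.15 in APP-SOCS3 astrocytes. Each APP-SOCS3 sample was below each WT-GFP sample, and 1 was above the lowest APP-GFP sample. *Abcc9* was detected in all APP-GFP samples, at 7.24, 182, 8.90 and 26.2, but in 2 of the 7 WT-GFP samples. In APP-SOCS3 astrocytes 4 samples had no read and replicate 3 had a level of 2, so all 5 samples were at or under 3 reads. *Anpep* was at 0 in at least 1 sample of every GFP+ group, at lowest 0, median 6.06, highest 85.6 in WT-GFP, 0, 97.7, 28.7 and 6.97 in APP-GFP and 0, 0, 5.00, 31.4 and 0 in APP-SOCS3 astrocytes.

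The receptors showed no such order. *Pdgfrb* was at lowest 338, median 1195, highest 2807 in WT-GFP, at 1208, 1083, 793 and 2113 in APP-GFP and at 869, 2112, 716, 1905 and 1199 in APP-SOCS3 astrocytes. The group means were 1347 ± 875 (SD, n = 7), 1299.6 ± 569.6 (SD, n = 4) and 1360.3 ± 622 (SD, n = 5). *Notch3* was at lowest 0, median 183, highest 496 in WT-GFP, at 188, 789, 106 and 138 in APP-GFP and at 71.8, 322, 134, 199.96 and 186 in APP-SOCS3 astrocytes, and the groups overlapped widely for both receptors. The high *Notch3* value of APP-GFP came from replicate 2.

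In the comparison of APP-GFP with WT-GFP astrocytes, none of the 10 members was called, where 2.23% of all genes tested were. The log2 fold change was positive for 5 members and negative for 5, with a median of 0.04, against 0.09 over all genes. The 95% CI ran from -0.95 to 1.27 on the log2 scale for *Pdgfrb* and from -2.93 to 4.19 for *Anpep*. *Abcc9* had the largest difference, at 3.08 (95% CI -0.25 to 6.41; limma, *p* = 0.0671, exact permutation *p* = 0.0636), and it was called without WT-GFP replicate 4 (3.91) or replicate 7 (3.57), the 2 WT-GFP samples with reads. The *Abcc9* value was 2.13 without APP-GFP replicate 2 and 0.95 without the 4 libraries with few genes detected, and the APP-GFP mean turned from 3.45 to 0.867 times the WT-GFP mean without APP-GFP replicate 2. No member had an unadjusted *p* under 0.05 in limma, or in edgeR and DESeq2 on whole reads, which called 2.87% and 2.30% of all genes. *Notch3* was called lower in APP-GFP without these 4 libraries (-0.99), where 3.15% of all genes were called.

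In the comparison of APP-SOCS3 with APP-GFP astrocytes, 5 of the 10 members were called lower and none higher, where 3.37% of all genes tested were called lower and 5.70% in either direction. The median log2 fold change of the 10 was -2.04, against 0.08 over all genes. *Vtn* fell by 3.08 on the log2 scale (95% CI -4.70 to -1.45; limma, *p* = 0.00157, exact permutation *p* = 0.00794), from a mean of 4626 ± 4208 (SD, n = 4) to 459.8 ± 293 (SD, n = 5). That is a ratio of means of 10.1, or 6.24 without APP-GFP replicate 3, the highest sample. *Abcc9* was at least 19.1-fold lower, with each APP-SOCS3 sample set to 3 reads, but at least 4.80-fold without APP-GFP replicate 2 (limma, *p* = 0.00265, exact permutation *p* = 0.00794). These were the 2 members whose groups did not overlap, as for 2.01% of all genes tested. Their exact *p* is the smallest that 5 against 4 samples allow (0.0236 after adjustment over 40 tests). For *Abcc9* the gap was small, with 8 and 9 reads in APP-GFP replicates 1 and 3 against at most 2 in APP-SOCS3 samples. The gene was tested only because its APP-GFP mean reached the minimum level of 10, so its call and its exact *p* carry this limit.

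*Higd1b* fell by 2.78 on the log2 scale (95% CI -4.71 to -0.85; limma, *p* = 0.00901, exact permutation *p* = 0.0317). For *Tagln* the change was -1.97 (95% CI -3.40 to -0.55; limma, *p* = 0.0111, exact permutation *p* = 0.0317). With the replicate number fitted as a block, *Higd1b*, *Tagln* and *Acta2* were not called. *Acta2* fell by 1.49 (95% CI -2.77 to -0.22; limma, *p* = 0.0256), but its exact permutation *p* was 0.0714, and it was not called without APP-GFP replicate 2 (-0.93), APP-GFP replicate 3 (-1.22) or APP-SOCS3 replicate 2 (-1.33). *Myl9* did not pass the threshold (-1.07; limma, *p* = 0.0634, exact permutation *p* = 0.151), and was called without APP-GFP replicate 1 (-1.54) or replicate 4 (-1.33). *Rgs5* did not pass either (-2.96; limma, *p* = 0.0743, exact permutation *p* = 0.0714), and was called without APP-SOCS3 replicate 5, the sample with no read (-1.37), or replicate 1 (-3.53). *Anpep* (-2.11) and *Notch3* (-0.40) were not called. For *Pdgfrb* the log2 fold change was 0.03, with a 95% CI of -0.78 to 0.84. No member had an adjusted *p* under 0.05 in limma (lowest 0.576, 0.00438% of all genes), where 5 had an unadjusted *p* under 0.05, or in edgeR, which called 6 members and 5.79% of all genes before adjustment. With DESeq2 on whole reads, the tool of the study, 5 of the 10 had an adjusted *p* under 0.05 (*Abcc9*, *Vtn*, *Acta2*, *Tagln* and *Higd1b*), where 0.893% of all genes did.

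**Figure D2:**
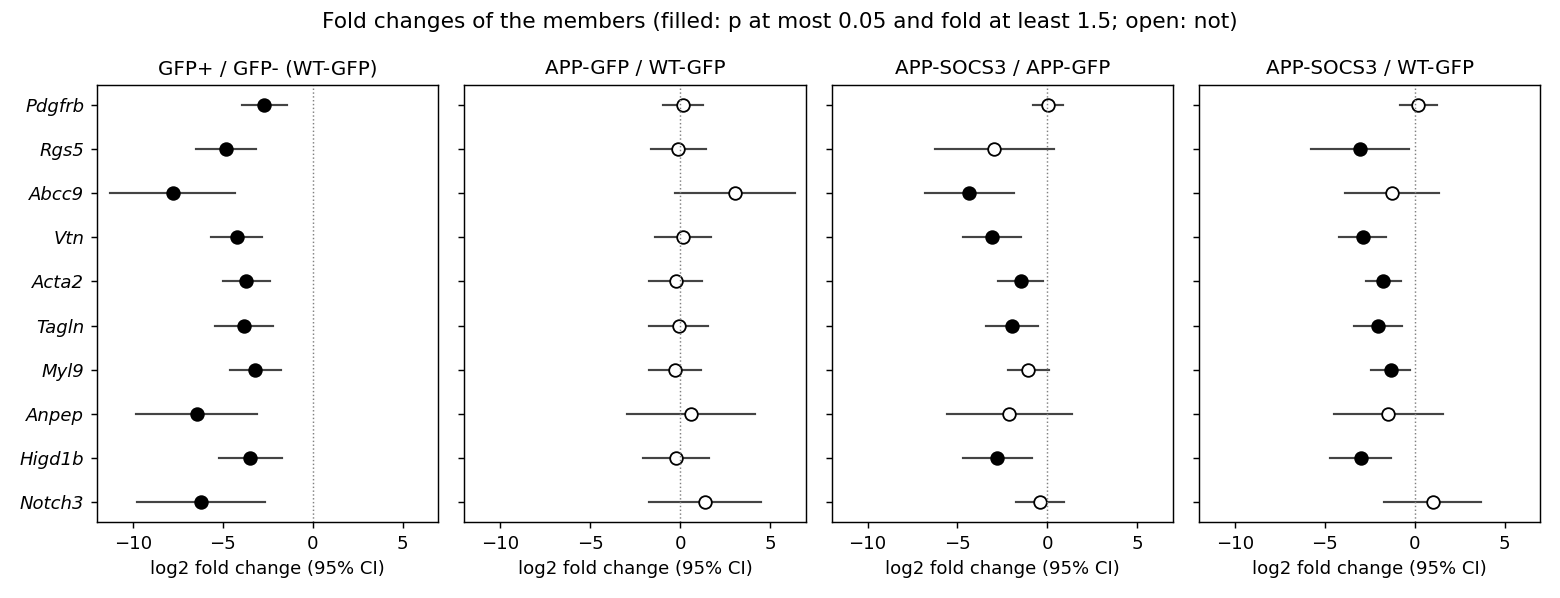
Log2 fold changes of log2(level + 1) for the 10 members in 4 comparisons, with 95% confidence intervals from limma and filled points for called members. Filled points lie left of 0 for all 10 members between GFP+ and GFP- cells, for 5 between APP-SOCS3 and APP-GFP and for 6 between APP-SOCS3 and WT-GFP astrocytes, and the panel of APP-GFP and WT-GFP astrocytes has none.

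In the comparison of APP-SOCS3 with WT-GFP astrocytes, 6 of the 10 members were called lower and none higher, where 2.02% of all genes tested were called lower and 5.21% in either direction. The median log2 fold change was -1.61, against 0.19 over all genes. The contractile genes were all among them, with *Acta2* at -1.74 (limma, *p* = 0.00193, exact permutation *p* = 0.00253), *Tagln* at -2.05 (limma, *p* = 0.00572, exact permutation *p* = 0.00884) and *Myl9* at -1.34 (limma, *p* = 0.0185, exact permutation *p* = 0.0253). The others were *Vtn* at -2.90 (limma, *p* = 3.42e-04, exact permutation *p* = 0.00758), *Higd1b* at -3.00 (limma, *p* = 0.00206, exact permutation *p* = 0.00126) and *Rgs5* at -3.05 (limma, *p* = 0.0316, exact permutation *p* = 0.0177). Groups did not overlap for *Acta2* and *Higd1b*, as for 0.566% of all genes tested, and 0.00126 is the smallest exact *p* that 5 against 7 samples allow.

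The ratio of means of *Acta2* was 4.56, and 2.56 without WT-GFP replicate 2. For *Higd1b* the ratio was 10.4, and 6.42 without the same library. The call of *Rgs5* was lost without WT-GFP replicate 2 (-2.65) or replicate 4 (-2.90), and with the replicate number fitted as a block. Its value was -1.46 without APP-SOCS3 replicate 5, the sample with no read. *Abcc9* (-1.26), *Anpep* (-1.48), *Notch3* (0.99) and *Pdgfrb* (0.19, 95% CI -0.84 to 1.22) did not pass the threshold. Without the libraries with few genes detected, 7 members were called, with *Anpep* added (-3.45), where 7.18% of all genes were. In limma no member had an adjusted *p* under 0.05 (lowest 0.178, 0.0305% of all genes), where 6 had an unadjusted *p* under 0.05, and none had one in edgeR, which called 6 members and 5.24% of all genes before adjustment. With DESeq2 4 had one (*Vtn*, *Acta2*, *Tagln* and *Higd1b*), as 0.797% of all genes did.

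Other mural genes were described in the same fit. Of the other pericyte genes, 11 of 12 were tested in APP-SOCS3 against APP-GFP astrocytes and 2 were called lower, *Foxs1* (-4.62), a forkhead transcription factor, and *Atp13a5* (-1.36), a transport ATPase. Their median was -1.36. Of the other smooth muscle genes, 10 of 12 were tested and 3 were called lower, *Mrvi1*, which encodes a regulator of calcium release and was at 0 in all APP-SOCS3 samples, *Mylk* (-2.36), the kinase of myosin light chains such as that of *Myl9*, and *Pln* (-0.61), phospholamban. All 10 tested had a negative value, with a median of -0.94. Against WT-GFP astrocytes, 2 pericyte genes (*Ndufa4l2*, -2.01, and *Foxs1*, -3.62) and 4 smooth muscle genes (*Pln*, -0.86, *Mustn1*, -1.66, *Tpm2*, -1.52, and *Kcnmb1*, -2.32) were called lower. None of either list was called in APP-GFP against WT-GFP astrocytes.

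Partners of the receptors and of vitronectin were listed as well. Of 18 genes of PDGF and Notch signalling, 12 were called lower and 1 higher in GFP+ than in GFP- cells, with the Notch target *Hes1* (-1.85), the Notch target *Heyl* (-2.94) and the receptor *Notch4* (-4.11) lower and *Nrarp*, a Notch target that feeds back on the pathway (1.47), higher. In both APP-SOCS3 comparisons only *Dll4*, an endothelial ligand of Notch receptors, was called lower, at -3.63 against APP-GFP and -3.60 against WT-GFP. *Pdgfb*, the endothelial ligand of the *Pdgfrb* receptor, was named after its values were seen. Its level in WT-GFP astrocytes was 265 ± 322 (SD, n = 7). APP-GFP astrocytes had 296 ± 263 (SD, n = 4) and those of APP-SOCS3 mice 90.5 ± 95.2 (SD, n = 5), and the gene was not called between these groups. Of 6 vitronectin partners, 4 were called lower in GFP+ cells, among them the integrin subunits *Itgb1* (-3.21) and *Itgb3* (-6.25). In APP-SOCS3 against APP-GFP astrocytes 1 of 4 tested was, the urokinase receptor gene *Plaur* (-1.89).

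The same comparisons were made for lists of other cells that a hippocampal sort could hold. Of the endothelial genes, 17 of 19 tested were called lower in APP-SOCS3 than in APP-GFP astrocytes, with a median of -2.55, and 15 of 20 against WT-GFP, with a median of -2.49. Examples against APP-GFP were *Flt1*, a receptor of VEGF (-2.69), and *Cldn5*, the claudin of endothelial tight junctions (-2.49). Of 16 microglial genes, 15 were called lower against APP-GFP (median -1.88) and 10 against WT-GFP (median -1.12), among them the receptor gene *P2ry13* (-2.38 and -2.17). Of the perivascular fibroblast genes, 4 of 9 tested were lower in either comparison, with the matrix gene *Dcn* (-3.53 and -3.62) in both. Of 8 perivascular macrophage genes, 6 were lower against APP-GFP, among them *Clec10a* (-4.68) and *Pf4* (-3.02), and 0 of 7 tested passed the limma thresholds against WT-GFP. Of 15 astrocyte genes, 1 was lower, *Gfap* (-1.02 against APP-GFP and -0.68 against WT-GFP).

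Neuronal genes were called lower in 2 of 9 tested against APP-GFP and in 0 of 9 against WT-GFP. Oligodendrocyte genes were in 1 of 7 and in 2 of 6, and oligodendrocyte precursor genes in 3 of 6 and in 1 of 6. In APP-GFP against WT-GFP astrocytes the only list genes called were the microglial gene *Ly86* (1.55) and the perivascular macrophage gene *Clec10a* (5.21), both higher.

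As a share of the GFP- mean, the summed level of the 10 members ranged over 2.79% to 28.1% for WT-GFP, 2.98% to 16.4% for APP-GFP and 1.93% to 3.06% for APP-SOCS3 samples. The summed level of the 20 endothelial genes was 4.29% to 23.2%, 6.14% to 21.4% and 3.09% to 5.65% in the same groups. *Slc2a1*, a glucose transporter gene singled out after its values were seen, made 62.6% of this sum in APP-SOCS3 astrocytes, and without it the sums were 2.48% to 22.7%, 3.53% to 19.3% and 0.806% to 3.77%. For the other pericyte genes it was 2.29% to 8.66%, 2.07% to 9.07% and 1.29% to 2.26%, and for the other smooth muscle genes 5.44% to 23.2%, 4.05% to 18.9% and 2.76% to 4.75%. Microglial genes summed to 6.36% to 22.8%, 8.61% to 40.6% and 4.84% to 8.36%, and perivascular fibroblast genes to 16.4% to 32.8%, 17.6% to 56.8% and 17.5% to 25.2%. *Fbln1* and *Col1a1*, singled out in the same way, made 87.6% of the fibroblast sum in APP-SOCS3 astrocytes, and without them it was 6.24% to 25.4%, 5.62% to 19.6% and 0.695% to 5.02%. The sum of the members also weighs its genes unevenly. *Pdgfrb*, which did not fall, had the highest mean of the members in APP-SOCS3 astrocytes (1360). In GFP- cells *Vtn* (51644) and *Acta2* (41503) had the highest. Of the endothelial genes, *Erg* was at 0 in all APP-GFP samples. Of the smooth muscle genes, *Actg2* was at 0 in all 16 GFP+ samples, *Myocd* in all APP-GFP and APP-SOCS3 samples and *Mrvi1* in all APP-SOCS3 samples. Lower endothelial, microglial and mural genes went together in APP-SOCS3 samples, and the part of other sorted cells in the fall of the members was not tested.

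**Figure D3:**
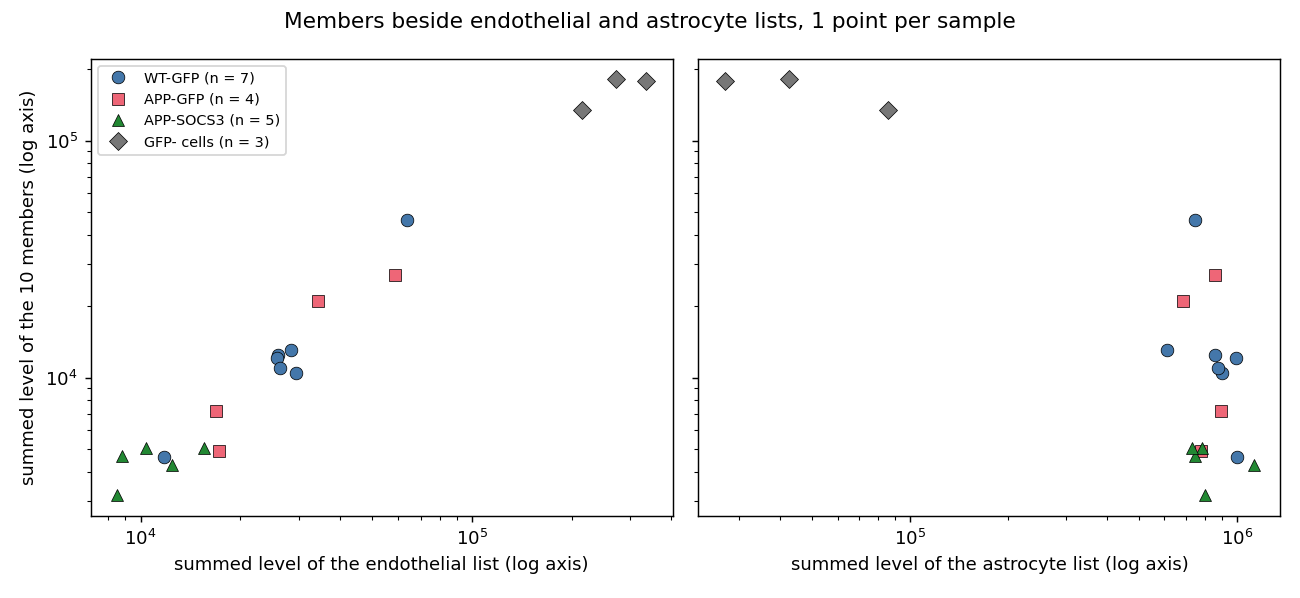
Summed normalized level of the 10 members, on the vertical log axis, against the summed level of 20 endothelial genes (left) and of 15 astrocyte genes (right), on horizontal log axes, 1 point per sample and 1 symbol per group. The 16 GFP+ samples spread along the endothelial axis with the members, from the APP-SOCS3 samples at 3179 to 5039 up to WT-GFP replicate 2 at 46328, and stand together at the high end of the astrocyte axis.

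Across the 16 GFP+ samples, members varied together to different degrees. Of the 45 pairs, 34 had a positive Pearson *r* of log2 levels, with a median of 0.35. *Acta2* and *Myl9* had the highest, with *r* = 0.97 and Spearman's rho = 0.92 (2-sided permutation *p* = 1e-05 for both, the smallest that 100000 permutations can give, and 6.87e-05 for *r* after adjustment over 55 relations). Without the 2 samples farthest from the *Acta2* median *r* was 0.93, and without the 5 APP-SOCS3 samples 0.97. *Acta2* and *Tagln* had 0.95, *Tagln* and *Myl9* 0.95, *Tagln* and *Higd1b* 0.86, and *Vtn* and *Tagln* 0.85. Without the APP-SOCS3 samples these were 0.96, 0.96, 0.75 and 0.69, and *Vtn* and *Higd1b* went from 0.84 to 0.56. Leaving out these samples raised the *r* of *Rgs5* with *Acta2* (0.61 to 0.78), *Myl9* (0.63 to 0.82) and *Tagln* (0.73 to 0.76). The *r* of *Rgs5* stayed positive but became smaller with *Vtn* (0.80 to 0.76) and *Higd1b* (0.69 to 0.49).

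The receptors varied otherwise. *Pdgfrb* and *Notch3* had *r* = 0.41 and rho = 0.59 with each other (permutation *p* = 0.115 and 0.0174, or 0.225 and 0.0415 adjusted over 55 relations), with *r* = 0.51 without the 2 samples farthest from the *Pdgfrb* median. *Pdgfrb* had a median *r* of -0.17 with the other 9 members, and *Notch3* of -0.13, with the lowest of all pairs, -0.46, between *Notch3* and *Higd1b*. *Abcc9* and *Anpep*, with many samples at 0, had their highest *r* with each other, at 0.66. The samples of 1 group share genotype and vector, and all share the normalization, so *r* describes these samples.

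**Figure D4:**
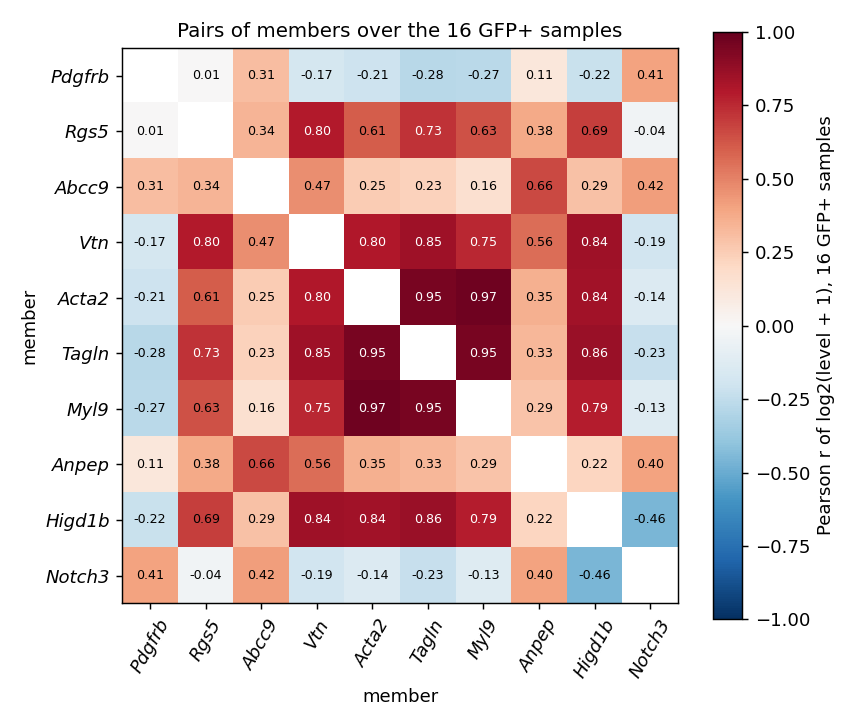
Pearson *r* of log2(level + 1) over the 16 GFP+ samples for each of the 45 pairs of members, written in each cell and coloured from -1 to 1. The contractile genes with *Vtn* and *Higd1b* form a block of high values, up to 0.97 for *Acta2* and *Myl9*, and the rows of *Pdgfrb* and *Notch3* are near or below 0 for most genes. *Rgs5* has 0.61 to 0.80 with the genes of this block.

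The summed endothelial level was related to the same members. With *Vtn* its Pearson *r* was 0.89 and Spearman's rho 0.94 (permutation *p* = 1e-05 for both, 6.87e-05 adjusted for *r*), 0.93 without the 2 samples farthest from the endothelial median and 0.85 in the 11 samples without APP-SOCS3. With *Acta2* *r* was 0.91 and rho 0.86 (permutation *p* = 1e-05 and 4e-05), 0.827 without the 2 farthest samples and 0.905 without APP-SOCS3. With *Pdgfrb* *r* was -0.09 and rho -0.16 (permutation *p* = 0.737 and 0.558), and with *Notch3* *r* was -0.15 and rho -0.08 (permutation *p* = 0.596 and 0.782).

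Genes most like the members were ranked by Pearson *r* with the mean of the 10 standardised log2 levels, among 12166 genes whose mean over the 16 GFP+ samples was 100 or more, which left out *Abcc9* and *Anpep*. The 6 highest with a gene symbol that are not members, at ranks 2 to 8 with 2 entries without a symbol not named, were the heat shock genes *Hspa1a* and *Hspa1b*, listed as 1 entry (0.93), the myosin gene *Myo1h* (0.92), the immediate early gene *Ier3* (0.91), the mRNA decay factor *Zfp36* (0.91), the forkhead factor *Foxc1* (0.91) and the complement inhibitor *Serping1* (0.91). All 6 had their highest mean in GFP- cells and their lowest in APP-SOCS3 astrocytes. Among the 100 highest ranks were 11 of the 18 endothelial genes that were ranked, 5 of the 8 ranked members, 1 of the 5 ranked smooth muscle genes and 0 of the 5 ranked pericyte genes. They also held 2 of the 6 ranked perivascular fibroblast genes and 1 of the 16 ranked microglial genes. *Notch3* ranked 3142 and *Pdgfrb* 3901, although they entered the mean themselves, as all 10 members did. High ranks of members are thus partly built in. Low levels of the likest genes in APP-SOCS3 follow in part from how these genes were chosen.

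Some levels could hold reads of other genes. The coding sequence of *Acta2* was 81.5% to 85.4% identical to those of 5 other actin genes, with identical runs of up to 56 bases in *Actg1*, and that of *Myl9* was 79.6% and 86.3% identical to *Myl12a* and *Myl12b*, with runs of up to 35 bases. *Actg1* had a mean level of 9194 in WT-GFP, 9412 in APP-GFP and 9711 in APP-SOCS3 astrocytes. *Actb* had 7870, 12854 and 10799 in the same groups. Both *Myl9* paralogs were lowest in APP-SOCS3 astrocytes, with *Myl12a* at 2711, 2908 and 1570 and *Myl12b* at 5303, 5392 and 3743. Whether reads of these genes entered the levels of *Acta2* and *Myl9* was not tested. On the authors' positions, *Tagln* overlaps *Pcsk7* on the opposite strand. *Abcc9* and *Notch3* overlap unnamed transcripts on the opposite strand, and *Anpep* overlaps an unnamed transcript on its own strand. It is not stated whether counting used the strand, which could not separate the transcripts at *Anpep*.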

How the data were processed

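RNAseq of sorted cells was made by the authors from 19 samples. Full length cDNA was amplified from a low input, reads were mapped to mm10 with STAR 2.4.0, and reads on constitutive regions of FAST DB genes were counted and normalized by the DESeq2 method. As deposited by the authors, each value is a signal: the reads of a gene over the size factor of that library, and 100% of values came out as whole reads (within 0.001). The strand used in counting is not given in the sources used here.

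For each member the entry with its symbol was taken. Log2(level + 1) was tested by limma (version 3.58.1, R 4.3.3; trended variance) on samples of the groups compared, keeping genes that averaged 10 or more in either group. Called means *p* up to 0.05 before adjustment with a change of 1.5-fold or more, as in the study. *P* values were also adjusted by Benjamini-Hochberg over all genes tested. Exact permutation tests were 2-sided, and correlations used 100000 permutations. Where all samples of a group had at most 3 reads, ratios used 3 reads per sample. The alternatives included edgeR 4.0.16 (quasi-likelihood) and DESeq2 1.42.0 (Wald) on whole reads. The limma step was tried on simulated reads, with the same spread for all genes and changes only in genes well above the minimum level. That trial does not cover members near 0 reads or with a wide spread between samples.

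The 10 members were named in every comparison. Of each other list at most 4 called genes with the smallest *p* per comparison were eligible, as well as the 6 genes most like the members. The members and the lists, written from general knowledge, were chosen with earlier results of these data known. Deviations of same-numbered samples of the groups had correlations of 0.15 or less, and the numbers were not taken as pairs, although this cannot exclude a pairing.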

Additional observations from a re-analysis of the deposited data

Results flagged for a closer look

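A sample was looked at where its gap to the nearest other sample of its group was large against the range of the group (Dixon's test at the 95% level). Of 30 groups of 4 to 7 samples tested for the 10 members, 9 had such a sample, each the highest of its group. The test was run on levels without logs, some of them at 0, while its rate of 1 in 20 is for normal values. The count is thus not set against chance, and the members are not independent of each other. In WT-GFP, replicate 2 stood above all others for 4 genes, *Acta2* (16159, next 3706), *Tagln* (6447, next 1315), *Myl9* (12706, next 3147) and *Rgs5* (3625, next 1263). WT-GFP replicate 4 stood above the others for *Abcc9* (92.5, next 21.4). In APP-GFP, replicate 2 did so for *Abcc9* (182, next 26.2) and *Notch3* (789, next 188). In APP-SOCS3, replicate 4 did so for *Anpep* (31.4, next 5), and replicate 3 for *Abcc9* (a level of 2.0 where the other 4 samples were at 0). WT-GFP replicate 2 and APP-GFP replicate 2 are both among the 4 libraries with under 20000 genes detected.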

How the results depend on the processing

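The count of 10 members called lower in GFP+ than in GFP- cells was the same under all 20 alternatives, while edgeR and DESeq2 gave an adjusted *p* under 0.05 to 9 of them (not *Abcc9*), and the median of all genes in that comparison moved from -1.31 to -0.37 with edgeR and -0.71 with DESeq2. Before adjustment, the alternative fits called from 8588 of 26709 genes (edgeR) to 14165 of 37883 (without a minimum level). In APP-GFP against WT-GFP astrocytes the count of 0 became 1 with all 19 samples in one fit (*Abcc9*) and without the 4 libraries with few genes detected (*Notch3*), an alternative chosen after seeing the data, and was 0 to 1 when 1 sample was left out. Of all genes, 513 of 22969 were called in the main fit and 991 of 22969 with all 19 samples. Without the 4 libraries 733 of 23286 were called, and 393 to 677 with 1 sample left out. In APP-SOCS3 against APP-GFP astrocytes the count of 5 became 0 at an adjusted *p* under 0.05 and was 4 to 6 with 1 sample left out. Of all genes, 1301 of 22844 were called in the main fit and 1052 to 1836 with 1 sample left out. In APP-SOCS3 against WT-GFP astrocytes the count of 6 became 0 at an adjusted *p* under 0.05 and was 5 to 6 with 1 sample left out. There 1197 of 22958 genes were called in the main fit and 904 to 1435 with 1 sample left out. The cause of these differences was not tested. The share of all called genes that were lower was 25.5% (edgeR 37.5%, DESeq2 60.8%) in APP-GFP against WT-GFP, 59.1% (69.9%, 66.5%) in APP-SOCS3 against APP-GFP, 38.8% (63.3%, 70.6%) in APP-SOCS3 against WT-GFP and 78.4% (61.3%, 66.4%) in GFP+ against GFP- cells, and called members kept their direction with each tool.

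Same-numbered samples deviated with a correlation of -0.03 to 0.15 in APP-GFP and WT-GFP, of 0.0058 to 0.0886 in APP-SOCS3 and APP-GFP, of -0.0761 to 0.0949 in APP-SOCS3 and WT-GFP and of -0.0155 to 0.0188 in GFP+ and GFP- samples. In the same order, 1 of 4, 3 of 4, 0 of 5 and 2 of 3 shared numbers had their highest correlation with their own number. The correlations were small and the number was not taken as a pairing, but small correlations cannot exclude that same-numbered samples were paired. With the replicate number as a block, 3 members were called in APP-SOCS3 against APP-GFP (4.96% of all genes) and 5 in APP-SOCS3 against WT-GFP (6.24% of all genes), where a number found in 1 group only adds nothing to the difference. *Acta2*, *Tagln* and *Higd1b* were not called with the block against APP-GFP, and *Rgs5* was not against WT-GFP, while *Rgs5* was called against APP-GFP.

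Changes of sign concerned members that were not called with all samples. In APP-GFP against WT-GFP, *Pdgfrb* became -0.022 with edgeR, -0.051 with DESeq2 and -0.087 without the 4 libraries, which also turned *Vtn* to -0.43, *Anpep* to -2.34, *Higd1b* to 0.23 and *Notch3* to -0.99. In APP-SOCS3 against APP-GFP the only one of these libraries is APP-GFP replicate 2, and leaving it out turned *Pdgfrb* to -0.022 and *Notch3* to 0.22. In APP-SOCS3 against WT-GFP they are WT-GFP replicates 1, 2 and 3, and leaving them out turned *Pdgfrb* to -0.11 and *Notch3* to -0.77. There *Notch3* was -0.095 with edgeR and -0.11 with DESeq2. With 1 sample left out, values in APP-GFP against WT-GFP ranged from -0.12 to 0.39 for *Pdgfrb*, -0.45 to 0.31 for *Rgs5*, -0.38 to 0.63 for *Vtn*, -0.81 to 0.35 for *Acta2*, -0.67 to 0.38 for *Tagln*, -0.78 to 0.20 for *Myl9*, -0.37 to 1.84 for *Anpep* and -0.62 to 0.47 for *Higd1b*. In APP-SOCS3 against APP-GFP they ranged from -0.17 to 0.30 for *Pdgfrb* and -0.74 to 0.22 for *Notch3*, and in APP-SOCS3 against WT-GFP from -0.089 to 0.42 for *Pdgfrb* and -0.069 to 1.42 for *Notch3*.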
